A study of Mus musculus with 10 samples.

Results

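Wnt signaling genes were followed in mouse cells on the way from fibroblast to pluripotent cell. The set was chosen by gene symbol alone, with no measured value in the rule. It takes the Wnt ligands, the Fzd receptors, the secreted Sfrp and Dkk families, Lgr4 to Lgr6, the R-spondins, the axins, Tcf7 with its relatives Tcf7l1 and Tcf7l2, Lef1, Lrp5, Lrp6, the Nkd and Kremen genes and 9 single genes, each with a protein-coding transcript. It found 65 of the 45706 genes in the tables. Of these, 60 had enough reads to be tested, and the other 5 (Dkk4, Wnt1, Wnt10a, Wnt3 and Wnt9b) averaged at most 0.31 CPM (read counts scaled to a common library size) in any group.

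The study profiled poly(A) RNA at 5 stages with 2 libraries each, and every value below has n = 2 libraries per group. Embryonic fibroblasts (MEF) came from a reprogrammable mouse of C57BL/6 x 129 background, with genotype OKSM Col1a1/M2rtTA ROSA26, that is, a polycistronic reprogramming cassette at Col1a1 and a doxycycline-dependent transactivator at Rosa26. MEF were grown in fibroblast medium without doxycycline and were not sorted. Cells of that same genotype were put in stem cell medium with doxycycline at 1 µg/ml and ascorbic acid at 50 µg/ml, and were taken unsorted at day 3 or after a sort for SSEA1 at day 6 and day 9, so day 6 with day 3 combines time and sorting. Embryonic stem cells (ESC) were the V6.5 line, also C57BL/6 x 129, which carries no label of the cassette; they were unsorted and were grown in serum and LIF on irradiated feeder cells. The cassette lets doxycycline switch on Oct4 (Pou5f1), Klf4, Sox2 and Myc in every cell in which the transactivator works, so the induced groups carry both agents and the cassette, MEF carry the cassette without the agents, and ESC carry neither by their labels. The labels name an inhibitor of GSK3, which activates Wnt signaling, for ESC of other assays in the study and not for these RNA libraries. V6.5 is a single line, and the number of embryos behind the fibroblasts is not given in the sources used here, so p-values measure only the spread between these libraries.

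Wnt proteins are secreted lipid-modified ligands. Porcn adds the lipid and Wls carries the ligand to the cell surface, where it binds a Frizzled receptor and the co-receptor Lrp5 or Lrp6. The signal stops the destruction complex, built on axin, from degrading β-catenin (Ctnnb1), which then enters the nucleus and binds the TCF/LEF factors at target genes. In mouse embryonic stem cells the pathway is known for supporting self-renewal, in large part by relieving repression by Tcf7l1. In fibroblasts and other mesenchymal cells, ligands such as Wnt5a signal largely through branches that do not use β-catenin.

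Library depth ranged from 29585876 to 38275024 estimated reads, and the 65 genes took 0.1896% (ESC, replicate 2) to 0.276% (MEF, replicate 1) of them. The stage labels were checked against markers. The 13 fibroblast markers summed to 36169 to 36483 CPM in MEF, 4196 to 4236 at day 3, 310 to 326 at day 6, 122 to 130 at day 9 and 3102 to 3273 in ESC. The 10 pluripotency markers outside the cassette summed to 2.03 to 2.47 CPM in MEF, 445 to 451 at day 9 and 4186 to 4271 in ESC, so day 9 cells stood well below ESC. Fibroblast markers were thus above day 9 levels in the ESC libraries, in every comparison of ESC with day 9 below. The 9 epithelial markers summed to 42.6 to 45.9 CPM in MEF, 23.4 to 25.2 at day 3, 265 to 269 at day 6, 1359 to 1410 at day 9 and 602 to 603 in ESC, and the 4 keratinocyte markers to 1.23 to 1.51 CPM at day 6, 42.4 to 44.7 at day 9 and 15.3 to 15.5 in ESC. The 3 neural markers summed to 108 to 112 CPM at day 9 and 327 to 336 in ESC. For the 4 immune markers it was 6.78 to 6.97 and 29.7 to 30.8 CPM. The 5 endothelial markers summed to 8.63 to 9.64 CPM in MEF and 130 to 133 at day 3. They summed to 77.4 to 78.6 CPM at day 9 and 106 to 111 in ESC. The 4 extraembryonic endoderm markers summed to 23.1 to 23.5 CPM in MEF and 6.12 to 6.14 at day 3. They summed to 1.51 to 1.89 CPM at day 9 and 5.42 to 6.33 in ESC. Xist stood at 0.739 and 0.793 CPM in MEF and at 930 to 1317 CPM from day 3 to day 9, whereas the Y-linked gene Ddx3y stood at 90.6 and 86.4 CPM in MEF and at or below 0.176 CPM from day 3 to day 9, while ESC stood at 11.3 and 9 CPM for Xist and at 26.1 and 26.8 CPM for Ddx3y. By Xist and Ddx3y, MEF had the pattern of male cells and the induced groups that of female cells. Day 3 with MEF therefore compares cells of different embryos, and induction, embryo and sex cannot be told apart in it. A gene said below to rise or fall at day 3 is one that differs between these groups. The part of the marker, embryo and sex differences in the results of day 3 with MEF, ESC with day 9 and ESC with MEF was not tested.

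TCF/LEF factors recognise DNA through a short core motif. The bases upstream of the members' RefSeq start sites were searched for 2 forms of this motif, CTTTGAT and CTTTGTT, on both strands. RefSeq promoter sequences (GRCm38.p6) were at hand for 42 members, with 52 windows of 250 bases. A motif was found in 5 of the 52 windows (9.62%) and in 2648 of 32851 windows of the same length over all genes (8.06%). The 5 matches are shown because they are the places in these windows where the letters stand; the motif is in capitals, with up to 25 bases on each side, written along the gene's strand. They lie at chr7:98835036-98835092 (Wnt11, + strand), chr6:119449426-119449482 (Wnt5b, - strand), chr19:30549563-30549619 (Dkk1, - strand), chr1:59481992-59482048 (Fzd7, + strand) and chr19:55895282-55895320 (Tcf7l2, + strand). The last window, of Axin2 (chr11:108920099-108920348, + strand, 69.2% G and C), holds neither form and is shown whole because Axin2 is the most widely used readout of β-catenin signaling. The matches of Wnt5b, Dkk1 and Tcf7l2 lie inside the gene by its GENCODE span, upstream of a RefSeq start site within that span. These spans are chr6:119432531-119544347 for Wnt5b, chr19:30545863-30549665 for Dkk1 and chr19:55741820-55933654 for Tcf7l2. A match is a description of letters, and no binding was measured here.
Wnt11: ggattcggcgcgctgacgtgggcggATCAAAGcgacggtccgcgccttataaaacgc
Wnt5b: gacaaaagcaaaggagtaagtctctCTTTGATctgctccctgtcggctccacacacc
Dkk1: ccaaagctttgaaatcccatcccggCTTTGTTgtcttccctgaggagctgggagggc
Fzd7: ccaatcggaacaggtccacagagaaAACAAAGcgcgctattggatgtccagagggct
Tcf7l2: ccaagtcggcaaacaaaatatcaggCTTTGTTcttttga
Axin2: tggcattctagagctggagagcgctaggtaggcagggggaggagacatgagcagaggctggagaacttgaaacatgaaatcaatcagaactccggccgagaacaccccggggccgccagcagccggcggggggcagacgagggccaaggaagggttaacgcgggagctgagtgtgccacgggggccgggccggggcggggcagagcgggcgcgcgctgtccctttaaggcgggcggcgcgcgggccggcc

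More Wnt signaling genes were highest in fibroblasts than in any other group, and 31 fell by day 3. Of the 60 tested, 30 had their highest group mean in MEF and 10 in ESC, and 5, 6 and 9 had it at day 3, day 6 and day 9. No such count was made over all genes, so this one, like that of the ligands below, describes the members only. A gene was said to rise or fall where edgeR's quasi-likelihood test gave a p under 0.05 after Benjamini-Hochberg adjustment, and the fold change was 2 or more either way (1 on the log2 scale). In day 3 with MEF, 31 of the 60 fell and 6 rose, where 14.5% of all 20165 genes tested fell and 14.6% rose. Counting both directions, 61.7% of the members and 29.1% of all genes passed. The median log2 fold change was -1.42 over the members and 0.08 over all genes. Because the RNA is from whole cultures or sorted pools, fewer cells of a type and less RNA per cell cannot be told apart.

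**Figure D1:**
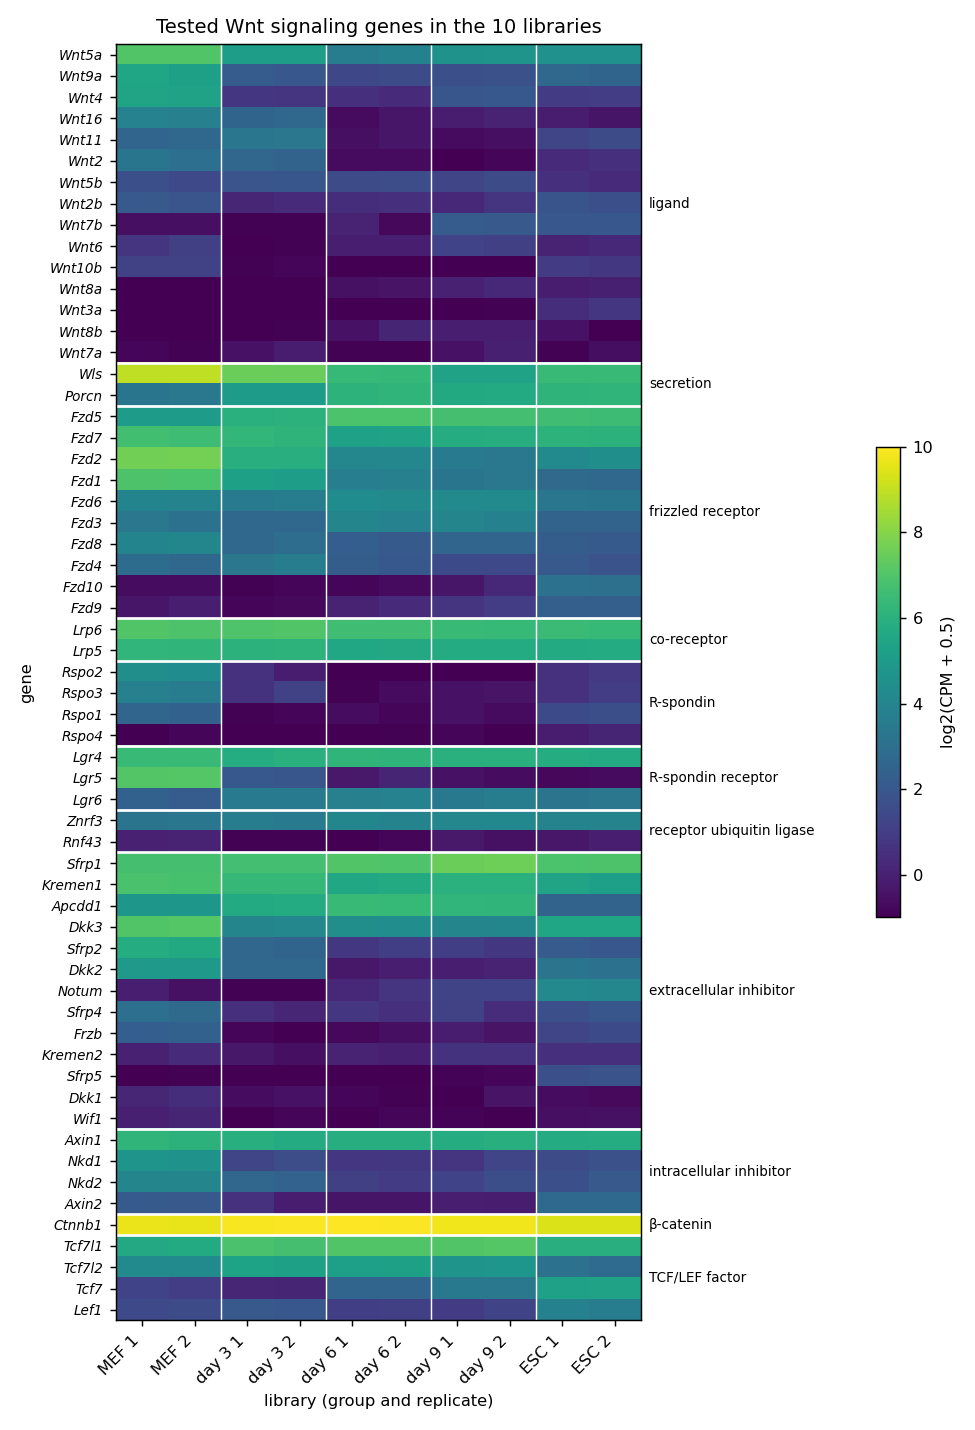
Level of each of the 60 tested Wnt signaling genes (rows, grouped by role) in each of the 10 libraries (columns), as log2(CPM + 0.5), from dark (low) to yellow (high). The 2 libraries of a stage look alike, the ligand, R-spondin and extracellular inhibitor blocks are brightest in MEF, and Ctnnb1 is bright in all 10 libraries.

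The later steps moved fewer members, and ESC stood apart from day 9 in the other direction. In day 6 with day 3, 17 members fell and 9 rose, where 10.2% of all genes tested fell and 9.26% rose. In day 9 with day 6, 9 rose and 2 fell, where 5.18% of all genes rose and 2.68% fell. In ESC with day 9, 24 were higher and 8 lower, where 18.6% of all genes were higher and 14.3% lower. In ESC with MEF, 27 were lower and 13 higher, where 20.6% of all genes were lower and 25.5% higher. Counting both directions, the shares of members and of all genes were 43.3% and 19.5% in day 6 with day 3, 18.3% and 7.87% in day 9 with day 6, 53.3% and 32.9% in ESC with day 9, and 66.7% and 46.1% in ESC with MEF. Member medians on the log2 scale were 0.00, 0.21, 0.37 and -0.71 in these 4 comparisons, beside 0.03, 0.00, 0.00 and 0.10 over all genes. With groups at 0 reads set to their bound, the member medians were -1.29 in day 3 with MEF, 0.00, 0.12 and 0.37 in the next 3, and -0.71 in ESC with MEF. Consecutive comparisons share the group between them, so the counts are not independent of each other. In all, 51 members passed both thresholds in at least 1 of the 5 comparisons, of which 28 reached 10 CPM in a group and are given library by library below.

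**Figure D2:**
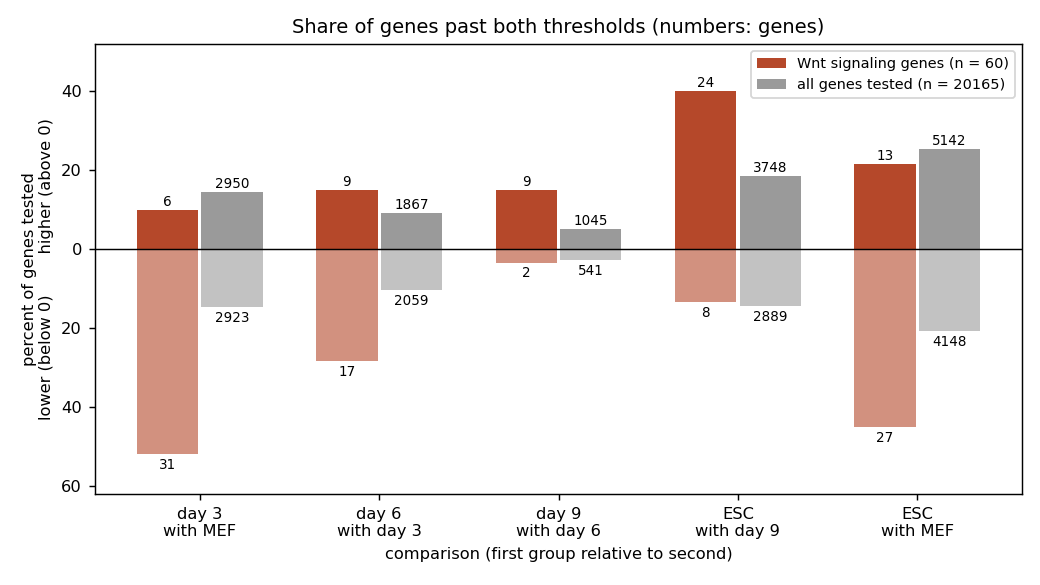
Percent of the 60 tested Wnt signaling genes (red) and of all 20165 genes tested (grey) that were higher (bars above 0) or lower (bars below 0) in each of the 5 comparisons, with the number of genes at each bar. The red bar below 0 is longest in day 3 with MEF (31 genes) and the red bar above 0 is longest in ESC with day 9 (24 genes).

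The summed level of the ligands was highest in fibroblasts, although single ligands peaked at different stages. Of 19 ligand genes, 15 were tested, and 7 of these had their highest mean in MEF, 2 at day 3, 5 at day 9 and 1 in ESC. Of the 15, 8 fell and 1 (Wnt7a) rose at day 3, 5 fell and 4 rose at day 6, 5 rose at day 9, and 6 were higher and 4 lower in ESC than at day 9. Of all genes, 14.5% fell and 14.6% rose in day 3 with MEF, and 10.2% fell and 9.26% rose in day 6 with day 3. The all-gene shares were 5.18% up and 2.68% down in day 9 with day 6, and 18.6% higher and 14.3% lower in ESC with day 9. The epithelial and keratinocyte markers were also higher at day 9 than at day 6, and the fibroblast markers higher in ESC than at day 9; their part in the ligand results was not tested. Per transcript length, over transcripts of at least 400 bases, the ligands summed to 35.5 and 33 TPM (a level scaled by transcript length) in MEF, 11.1 and 12 at day 3, 3.06 and 3.32 at day 6, 5.49 and 5.95 at day 9, and 6.88 and 6.93 in ESC. Wnt5a was the most abundant ligand per length in MEF, at 13.5 ± 0.2 TPM (SD), followed by Wnt9a at 6.05 ± 0.721, Wnt4 at 4.77 ± 0.301 and Wnt16 at 4.17 ± 0.406. Wnt4 and Wnt16 differed by less than the sum of their SDs.

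Wnt5a (chr14:28504750-28527448), which acts largely outside β-catenin signaling, stood at 129 and 129 CPM in MEF, 35.8 and 35.4 at day 3, 12 and 13.8 at day 6, 24.8 and 25.4 at day 9, and 23.2 and 23.3 in ESC. Both MEF libraries lay above all others, and day 6 was the low point. It fell at day 3 by 1.86 ± 0.05 (SE) on the log2 scale (edgeR adjusted p = 2.2e-13) and at day 6 by 1.47 ± 0.06 (edgeR adjusted p = 6.2e-11). The difference of day 9 from day 6 was 0.97 ± 0.06 on the log2 scale, just under the fold minimum, and ESC differed from day 9 by -0.11 ± 0.06 (edgeR adjusted p = 0.1).

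Wnt4 (chr4:137277489-137299726), a ligand with roles in kidney and gonad development, showed the steepest early loss among the ligands at 10 CPM or more. Its levels were 42.4 and 39.7 CPM in MEF, 1.16 and 1.12 at day 3, 0.911 and 0.726 at day 6, 3.38 and 3.56 at day 9, and 1.36 and 1.52 in ESC. It fell at day 3 by 5.16 ± 0.12 on the log2 scale (edgeR adjusted p = 5.1e-14), rose at day 9 by 2.08 ± 0.16 (edgeR adjusted p = 2e-07) and was lower in ESC than at day 9, at -1.27 ± 0.14 (edgeR adjusted p = 2.2e-06). All libraries from day 3 to ESC lay far below MEF, day 9 being nearest.

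Wnt9a (chr11:59306928-59333552), known from joint formation, stood at 43.5 and 37.5 CPM in MEF, 4.04 and 3.46 at day 3, 2.15 and 2.39 at day 6, 2.73 and 2.78 at day 9, and 6.16 and 5.42 in ESC. MEF libraries were the highest and day 6 and day 9 the lowest. The fall at day 3 was 3.43 ± 0.11 on the log2 scale (edgeR adjusted p = 1.9e-12), and ESC were higher than day 9 by 1.07 ± 0.14 (edgeR adjusted p = 7.6e-06). Wnt16 stood at 14.2 and 13.4 CPM in MEF, 5.33 and 6.09 at day 3, 0.118 and 0.302 at day 6, 0.418 and 0.556 at day 9, and 0.383 and 0.267 in ESC. Unlike Wnt4, it fell in 2 steps, by 1.27 ± 0.18 at day 3 (edgeR adjusted p = 1.7e-05) and by 4.75 ± 0.29 at day 6 on the log2 scale (edgeR adjusted p = 3.9e-09).

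The remaining ligands were under 10 CPM in every group. Wnt11 and Wnt2 were still present at day 3, with means of 9.68 and 5.42 CPM, and both fell at day 6, to 0.239 and 0.119 CPM. Wnt7b went the other way, from 0.184 CPM in MEF and 0.0282 at day 3 to 3.87 at day 9 and 3.43 in ESC. Its rise at day 9 was 3.55 ± 0.42 on the log2 scale (edgeR adjusted p = 1.4e-05). The fall of Wnt7b at day 3 rests on 11 reads in MEF and 2 at day 3. That call was lost with library-size scaling (edgeR adjusted p = 0.053), by limma on TPM, and without any single MEF or day 3 library. The log2 fold change, -2.56 with all libraries, was -2.49 to -2.61 in these last fits. The rise of Wnt7b at day 6, at 3.38, was lost by limma on TPM and without day 6 replicate 1 (1.56). Wnt6, at 1.35 CPM in MEF, had 1 read at day 3 over both libraries and was back at 1.72 CPM at day 9, a rise over day 6 (0.447 CPM). Wnt8a had no read in MEF or at day 3, and stood at 0.224 CPM at day 6, at least 5.29-fold above the 3-read floor of day 3, then at 0.585 CPM at day 9. Wnt3a, a ligand used in culture to activate β-catenin signaling, had 1 read in the 8 libraries outside ESC and stood at 0.854 and 1.17 CPM in ESC, at least 20.4-fold above the 3-read floor of MEF. Wnt10b stood at 1.74 CPM in MEF, had no read at day 6 or day 9, and stood at 1.32 CPM in ESC, at least 31-fold above the day 9 floor.

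Wnt8b rose at day 6 from 1 read at day 3 to 0.235 and 0.605 CPM (edgeR adjusted p = 0.009). This call rests on few reads and was lost by limma on TPM, and without day 3 replicate 1 or day 6 replicate 2. The log2 fold change, 4.57 with all libraries, was 3.66 and 3.74 in these last 2 fits. Wnt2b, at 3.43 CPM in MEF and 2.92 in ESC, lay between 0.679 and 0.881 CPM from day 3 to day 9. Wnt5b held 2.16 to 3.24 CPM from MEF to day 9 and was lower in ESC, at 0.844 CPM. Wnt7a never exceeded a group mean of 0.352 CPM; its MEF and day 6 groups held 3 and 2 reads, so its rises and fall rest on few reads. Of the ligands, Wnt3a, Wnt7b and Wnt8a were higher in ESC than in MEF.

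The 2 genes of Wnt secretion moved in opposite directions up to day 6, and in the same directions after it. Wls (chr3:159839672-159938664), the carrier that every lipidated Wnt needs to leave the cell, stood at 498 and 493 CPM in MEF, 183 and 181 at day 3, 81.3 and 80 at day 6, 40.5 and 39.9 at day 9, and 86.2 and 85.5 in ESC. Each stage lay below the one before it up to day 9, with no overlap between groups, and ESC were back near the day 6 level. It fell by 1.44 ± 0.03 at day 3 (edgeR adjusted p = 1.3e-14) and by 1.18 ± 0.03 at day 6 on the log2 scale (edgeR adjusted p = 5.8e-13). The step to day 9, a 2.01-fold lower level (edgeR adjusted p = 6.3e-11), lay at the fold minimum and passed it or not with small changes of scaling. On coding transcripts only it was -0.88 on the log2 scale, under the minimum. Of the reads of Wls, 47.8% were assigned to transcripts without a coding label. ESC were higher than day 9 by 1.10 ± 0.03 (edgeR adjusted p = 1.8e-12), at 17.3% of the MEF level, where the fibroblast markers stood at 1.11% to 14%.

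Porcn (chrX:8193848-8206525), the acyltransferase that attaches the lipid, stood at 9.16 and 10.2 CPM in MEF, 33.1 and 32.7 at day 3, 68.6 and 71.8 at day 6, 51.5 and 52 at day 9, and 69.8 and 72.9 in ESC. MEF were lowest in both libraries, and day 6 and ESC overlapped at the top. It rose by 1.76 ± 0.06 on the log2 scale at day 3 (edgeR adjusted p = 6.6e-12) and by 1.09 ± 0.05 at day 6 (edgeR adjusted p = 1.3e-10). The differences of day 9 from day 6, -0.44 ± 0.05, and of ESC from day 9, 0.46 ± 0.05, were under the fold minimum. Porcn is X-linked and the MEF libraries differed from the induced ones in Xist and Ddx3y, while the median log2 fold change in day 3 with MEF was 0.03 over 746 X-linked genes and 0.08 over 19220 autosomal ones; the part of this difference in the Porcn result was not tested. Per length, Wls was at 94.9 ± 2.01 TPM and Porcn at 3.32 ± 0.172 in MEF, and at day 9 the order was turned, with 7.19 ± 0.139 TPM for Wls and 14.8 ± 0.32 for Porcn.

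**Figure D3:**
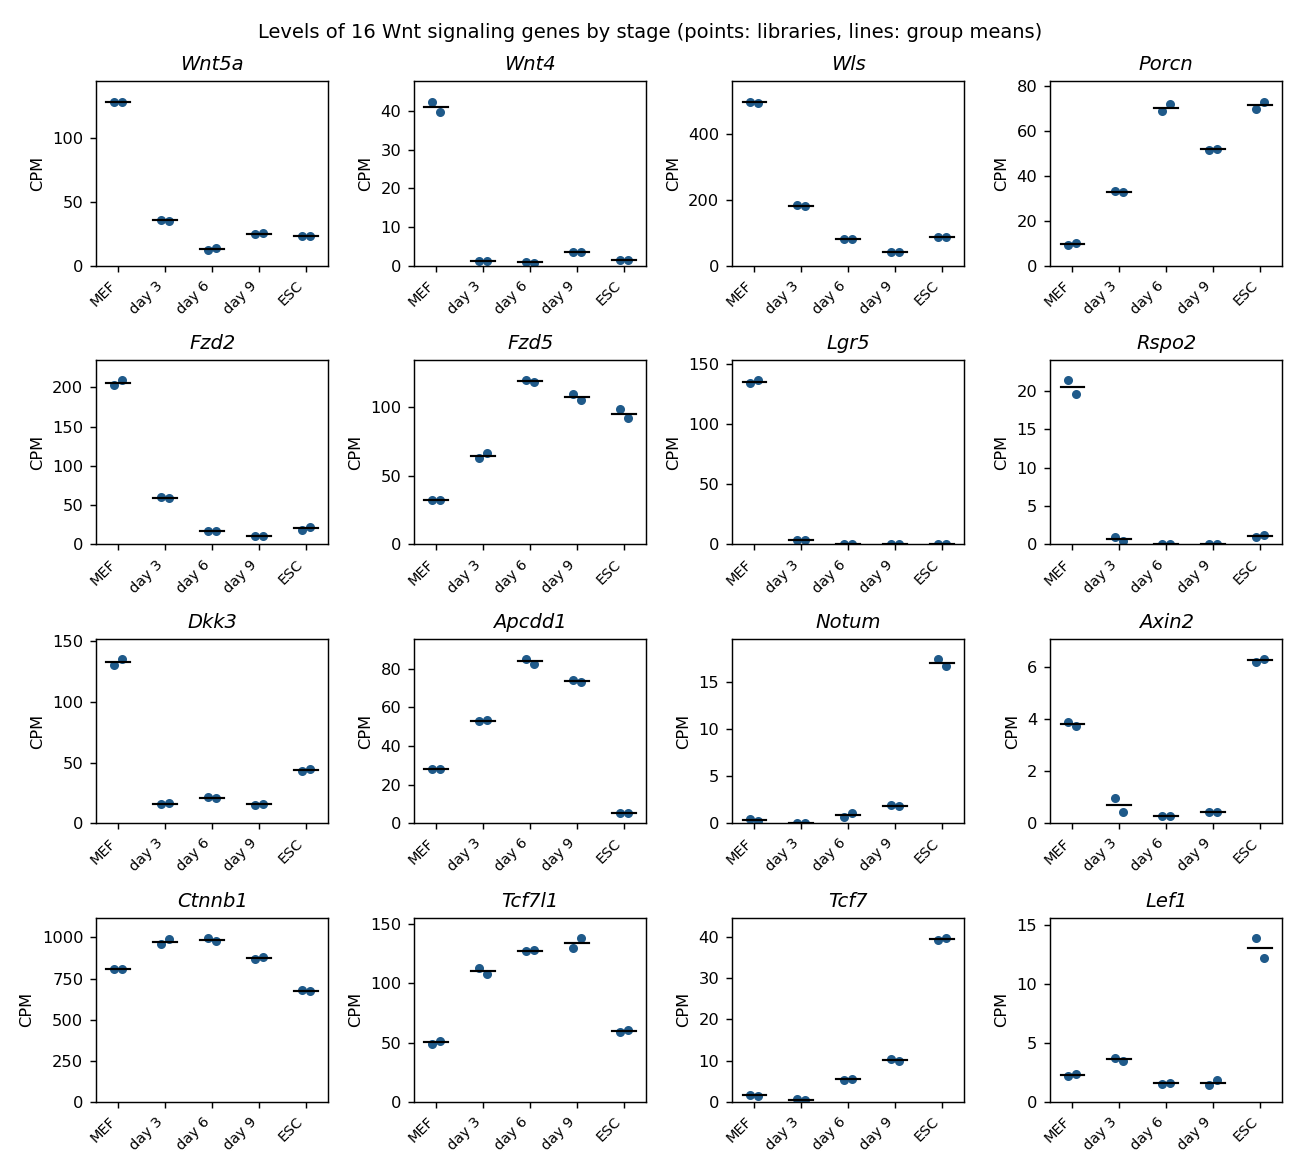
Level in CPM (vertical axis, from 0) of 16 Wnt signaling genes in MEF, day 3, day 6, day 9 and ESC (horizontal axis), 1 panel per gene, with a point for each library and a line at the mean of the 2. Wnt5a, Wnt4, Wls, Fzd2, Lgr5, Rspo2 and Dkk3 are highest in MEF, Apcdd1 and Tcf7l1 are highest between day 3 and day 9, and Notum, Axin2, Tcf7 and Lef1 are highest in ESC.

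The leading Frizzled receptor differed between stages, and the summed level was highest in MEF. Of 10 genes, 4 fell and 1 rose at day 3, 3 fell and 2 rose at day 6, 2 rose at day 9, and 2 were higher and 1 lower in ESC than at day 9. Of all genes, 14.5% fell and 14.6% rose at day 3, 10.2% fell and 9.26% rose at day 6, and 5.18% rose at day 9. In ESC with day 9, 18.6% of all genes were higher and 14.3% lower, so the receptors lay near the all-gene shares there. Summed per length, the 10 Frizzled genes were at 61.5 and 59.7 TPM in MEF, 29.4 and 30.4 at day 3, 22.1 and 22 at day 6, 21.6 and 20.7 at day 9, and 24.2 and 23.2 in ESC. Fzd2 led in MEF at 27.6 ± 0.204 TPM, Fzd5 at day 6 at 8.38 ± 0.194 TPM, and Fzd7 and Fzd5 were at 7.74 ± 0.285 and 6.98 ± 0.352 TPM in ESC.

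Fzd2, a receptor for Wnt5a among others, stood at 203 and 209 CPM in MEF, 60 and 58.6 at day 3, 16.5 and 16.7 at day 6, 11.3 and 10.1 at day 9, and 18.7 and 22 in ESC. MEF lay above every other library and day 9 lay lowest. Fzd2 fell at day 3 by 1.80 ± 0.05 (edgeR adjusted p = 8.4e-13) and at day 6 by 1.84 ± 0.07 on the log2 scale (edgeR adjusted p = 1.3e-11). Fzd1 stood at 123 and 118 CPM in MEF, 37.2 and 34.1 at day 3, 12.7 and 13.4 at day 6, 9.29 and 10.2 at day 9, and 6.48 and 6.09 in ESC. The order of its groups was the same as their order in time, ESC last, with no overlap. It fell by 1.76 ± 0.05 at day 3 (edgeR adjusted p = 1.1e-12) and by 1.45 ± 0.07 at day 6 on the log2 scale (edgeR adjusted p = 1.6e-10).

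Fzd8 stood at 15 and 16.1 CPM in MEF, 6.03 and 7.21 at day 3, 4.41 and 3.81 at day 6, 5.59 and 5.43 at day 9, and 4.3 and 3.79 in ESC. It was a fibroblast-high receptor like Fzd1 and Fzd2, and fell at day 3 by 1.23 ± 0.12 on the log2 scale (edgeR adjusted p = 3.7e-07). Fzd4, which also binds the non-Wnt ligand norrin, peaked at day 3: it stood at 6.87 and 5.91 CPM in MEF, 9.91 and 11.9 at day 3, 4.23 and 3.57 at day 6, 2.25 and 2.17 at day 9, and 3.65 and 2.99 in ESC. Its fall at day 6 was 1.48 ± 0.15 on the log2 scale (edgeR adjusted p = 1.2e-06).

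Fzd5 (chr1:64730558-64737751) was the receptor that gained most reads. It stood at 32 and 31.9 CPM in MEF, 62.7 and 66.1 at day 3, 119 and 118 at day 6, 109 and 105 at day 9, and 98 and 91.7 in ESC. Every later library was above MEF, and day 6 was highest. The rise at day 3 was 1.01 ± 0.05 on the log2 scale (edgeR adjusted p = 2e-10), at the fold minimum, and ESC stood above MEF by 1.57 ± 0.05 (edgeR adjusted p = 5.4e-13). Fzd3, known from axon guidance and planar polarity, stood at 9.72 and 8.2 CPM in MEF, 6.14 and 6.09 at day 3, 15.6 and 14.2 at day 6, 15.8 and 13.6 at day 9, and 5.16 and 5.23 in ESC. Day 6 and day 9 overlapped and lay above the other groups, with a rise at day 6 of 1.28 ± 0.11 (edgeR adjusted p = 1.5e-07) and an ESC level 2.83-fold below day 9 (edgeR adjusted p = 2.3e-08).

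A pair of receptors came on late. Fzd10 stood at 0.15 CPM in MEF, 0.043, 0.0899 and 0.486 CPM at the 3 induced stages in order and 8.12 in ESC, and Fzd9, in the same order of groups, at 0.376, 0.0713, 0.628, 1.31 and 4.51 CPM. Fzd10 was higher in ESC than at day 9 by 4.01 ± 0.32 on the log2 scale (edgeR adjusted p = 4.6e-08) and Fzd9 by 1.78 ± 0.27 (edgeR adjusted p = 3.8e-05). Fzd7 and Fzd6 passed both thresholds in no comparison: Fzd7 lay between 39.2 CPM at day 6 and 98.2 in MEF, and Fzd6 between 9.39 CPM in ESC and 19.2 at day 6. The co-receptors passed in none either, with group means of 47.6 to 74.2 CPM for Lrp5 and 82.8 to 125 CPM for Lrp6.

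R-spondins are secreted proteins that strengthen Wnt signaling by binding Lgr4, Lgr5 or Lgr6 and removing the ubiquitin ligases Rnf43 and Znrf3, which clear Frizzled from the membrane. All 3 R-spondins present in MEF fell at day 3. Rspo2 (chr15:43020794-43170826) stood at 21.4 and 19.6 CPM in MEF and at 0.996 and 0.384 at day 3, had no read in the 4 libraries of day 6 and day 9, and stood at 1 and 1.26 CPM in ESC. It fell at day 3 by 4.86 ± 0.28 on the log2 scale (edgeR adjusted p = 1.1e-08), was at least 15.8-fold lower at day 6 than at day 3, and was at least 26.7-fold higher in ESC than at day 9, both against a floor of 3 reads over the group. Rspo3 stood at 13.3 and 11.7 CPM in MEF, 1.02 and 1.66 at day 3, 0.0294 and 0.121 at day 6, 0.225 and 0.253 at day 9, and 1 and 1.47 in ESC. MEF lay above all other libraries, and day 3 and ESC overlapped. It fell by 3.22 ± 0.26 at day 3 (edgeR adjusted p = 5e-08) and by 4.09 ± 0.49 at day 6 on the log2 scale (edgeR adjusted p = 5.4e-06).

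Rspo1 went from 5.17 CPM in MEF to 3 reads at day 3, a 122-fold lower level with a 95% exact interval of 41.3 to 593 (counting error only), and stood at 2.43 CPM in ESC. Rspo4 held 2 reads at day 9 and 0.499 CPM in ESC, a 17.8-fold higher level (interval 4.59 to 153). All 4 R-spondins were thus higher in ESC than at day 9, and of them only Rspo4 stood above its MEF level. Both Rspo4 calls rest on few reads. Against MEF the call was lost by DESeq2 (adjusted p = 0.054), and without MEF replicate 1 or ESC replicate 2. The log2 fold change, 3.78 with all libraries, was 2.96 and 3.39 in these last 2 fits. Against day 9 it was 3.96, and the call was lost without day 9 replicate 2 (2.89). The summed fibroblast markers were also higher in ESC (3102 to 3273 CPM) than at day 9 (122 to 130 CPM), and Rspo2 (5.51% of MEF) and Rspo3 (9.89%) lay within the 1.11% to 14% of MEF at which those markers stood in ESC; their part in the R-spondin result was not tested.

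Lgr5 (chr10:115450311-115587780), an R-spondin receptor known as a stem cell marker of the intestine and itself a Wnt target, was lost almost entirely. It stood at 134 and 136 CPM in MEF, 3.53 and 3.31 at day 3, 0.353 and 0.605 at day 6, 0.225 and 0.152 at day 9, and 0.0884 and 0.134 in ESC. Each stage lay below the one before, and ESC were lowest. None of Lgr4, Lgr5 and Lgr6 was higher in ESC than at day 9. It fell at day 3 by 5.30 ± 0.07 on the log2 scale (edgeR adjusted p = 2.8e-16) and by 2.83 ± 0.19 at day 6 (edgeR adjusted p = 1.2e-08). ESC did not differ from day 9 past the thresholds (edgeR adjusted p = 0.32). ESC stood below MEF, at a fitted -10.19 on the log2 scale (edgeR adjusted p = 6.6e-17). The size of this difference is uncertain, because the ESC level of 0.111 CPM rests on few reads.

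Lgr6 was the receptor that rose. It stood at 4.8 and 4.12 CPM in MEF, 11.5 and 11.5 at day 3, 13.5 and 14.2 at day 6, 10.3 and 11.8 at day 9, and 8.93 and 9.8 in ESC. Every later library was above MEF, with a rise at day 3 of 1.37 ± 0.11 on the log2 scale (edgeR adjusted p = 6.6e-08). Lgr4 passed both thresholds in no comparison and lay between 54.4 CPM in ESC and 85.1 in MEF, which made it the leading R-spondin receptor per length from day 3 on, at 5.67 to 7.45 TPM. Znrf3 lay between 9.26 CPM in MEF and 16.8 at day 9 and passed in none either. Rnf43 was at 0.548 CPM in MEF, at 2 reads each at day 3 and day 6, and at 0.389 CPM in ESC.

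**Figure D4:**
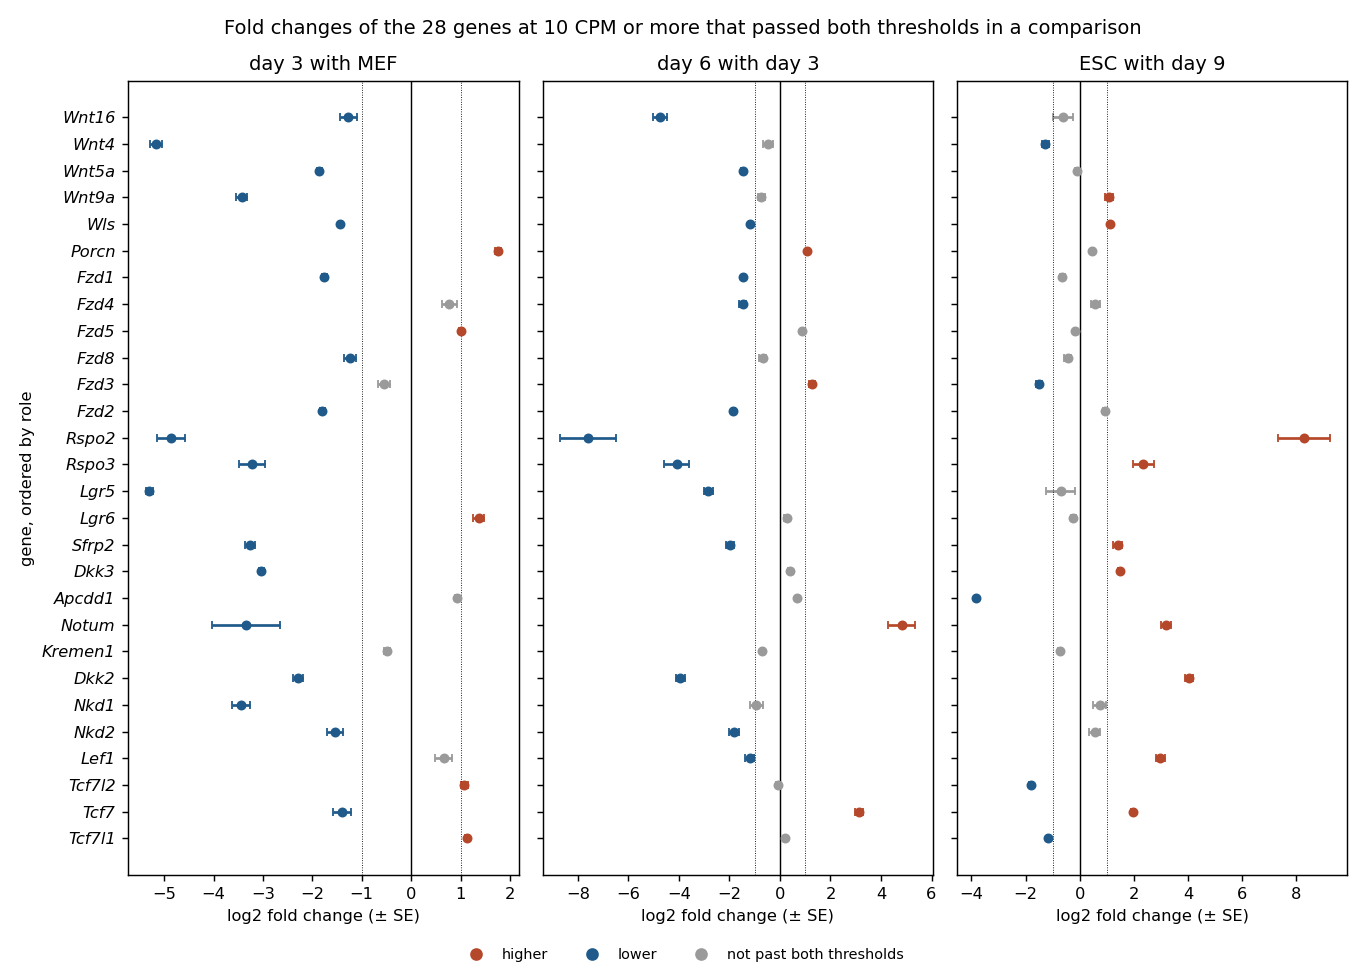
Fitted log2 fold change (horizontal axis, with SE bars) of the 28 Wnt signaling genes at 10 CPM or more in 3 comparisons, with red for higher, blue for lower and grey for not past both thresholds; dotted lines mark the fold minimum. In day 3 with MEF, Lgr5 (-5.30), Wnt4 (-5.16) and Rspo2 (-4.86) lie farthest left, and in ESC with day 9, Apcdd1 (-3.83) does. The fitted values of Rspo2 at day 6 and in ESC are against groups with no read and are not bounds, and those of Notum at day 3 and day 6 rest on 2 reads at day 3.

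Most extracellular inhibitors fell at day 3 and most were higher in ESC than at day 9, but their summed level was not. Of 13 tested, 9 fell and 0 rose at day 3, where 14.5% of all genes fell and 14.6% rose. At day 6, 2 fell and Notum rose, where 10.2% of all genes fell and 9.26% rose. At day 9 Notum rose, where 5.18% of all genes rose and 2.68% fell. In ESC, 8 were higher and 1 lower than at day 9, where 18.6% of all genes were higher and 14.3% lower. The summed fibroblast markers were 3102 to 3273 CPM in ESC and 122 to 130 at day 9. Per length, the inhibitors summed to 73.3 and 71.9 TPM in MEF, 33.9 and 35.1 at day 3 and 39.6 and 38.5 at day 6. They summed to 43.3 and 42.9 TPM at day 9 and 40.2 and 38.4 in ESC. Sfrp1, Apcdd1 and Kremen1, the most abundant per length at day 9, neither fell at day 3 nor were higher in ESC than at day 9. Dkk3 (chr7:112116017-112159057), a divergent Dickkopf whose action on Wnt signaling is debated, stood at 130 and 135 CPM in MEF, 15.6 and 16.7 at day 3, 21.3 and 20.7 at day 6, 15.4 and 15.9 at day 9, and 43.2 and 44.4 in ESC. MEF were highest and ESC next, with the 3 induced stages together at the bottom. Dkk3 fell at day 3 by 3.04 ± 0.05 on the log2 scale (edgeR adjusted p = 1.4e-15) and was higher in ESC than at day 9 by 1.48 ± 0.05 (edgeR adjusted p = 6.8e-12).

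Dkk2, which binds Lrp5 and Lrp6, stood at 29.2 and 30.4 CPM in MEF, 6.03 and 6.06 at day 3, 0.323 and 0.454 at day 6, 0.45 and 0.556 at day 9, and 8.81 and 7.98 in ESC. Day 6 and day 9 overlapped at the bottom, and ESC lay above day 3. It fell by 2.30 ± 0.10 at day 3 (edgeR adjusted p = 4.3e-11) and by 3.95 ± 0.18 at day 6 (edgeR adjusted p = 1.6e-10), and was higher in ESC than at day 9 by 4.03 ± 0.16 on the log2 scale (edgeR adjusted p = 2e-11). Sfrp2, a secreted decoy with a Frizzled-like domain, stood at 56 and 50.6 CPM in MEF, 5.71 and 5.29 at day 3, 1.23 and 1.57 at day 6, 1.58 and 1.24 at day 9, and 3.95 and 3.42 in ESC. Its fall at day 3 was 3.27 ± 0.10 on the log2 scale (edgeR adjusted p = 8.8e-13), and ESC stood above day 9 by 1.40 ± 0.17 (edgeR adjusted p = 3.6e-06).

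Sfrp1, the most abundant Sfrp gene per length from day 3 on, passed both thresholds in no comparison, with group means of 103 CPM at day 3 to 189 at day 9. Sfrp4 and Frzb, at 7 and 4.62 CPM in MEF, were at 0.755 and 0.0269 CPM at day 3 and at 3.01 and 2.11 CPM in ESC. Sfrp5 held at most 3 reads in any group before ESC, where it stood at 2.88 CPM, a 68-fold higher level than at day 9 (95% exact interval 22.9 to 332). Dkk1, Kremen2 and Wif1 did not exceed 1.01 CPM in any group; all 3 fell at day 3, and Wif1 was higher in ESC than at day 9, where it had 1 read. These calls rest on few reads: by DESeq2 the adjusted p was 0.087 for Dkk1 and 0.056 for Kremen2 at day 3, and 0.063 for Wif1 in ESC with day 9. With single libraries left out, the edgeR adjusted p was 0.061 to 0.17 for Dkk1 at day 3 (each of the 4 libraries), 0.13 and 0.12 for Kremen2 (without MEF or day 3 replicate 2), and 0.16, 0.052 and 0.085 for Wif1 in ESC with day 9 (without day 9 replicate 2, ESC replicate 1 or ESC replicate 2).

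Apcdd1 (chr18:62922231-62961179), a membrane inhibitor of Wnt signaling, had the reverse pattern of the group. It stood at 28.1 and 28 CPM in MEF, 52.8 and 53.4 at day 3, 84.8 and 82.5 at day 6, 74 and 73.1 at day 9, and 5.19 and 5.15 in ESC. The induced stages lay above MEF, and ESC below all of them. The differences of 0.92 ± 0.04 at day 3 and 0.66 ± 0.04 at day 6 on the log2 scale were under the fold minimum, and ESC were lower than day 9 by -3.83 ± 0.05 (edgeR adjusted p = 4.1e-16). Kremen1, a Dickkopf receptor, stood at 113 and 112 CPM in MEF, 80.9 and 78.7 at day 3, 46.9 and 51.6 at day 6, 65.1 and 65.2 at day 9, and 42.3 and 36.6 in ESC. It was lower in ESC than in MEF, at -1.51 ± 0.06 on the log2 scale (edgeR adjusted p = 8.6e-12), and no single step passed the fold minimum.

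Notum (chr11:120653788-120661175), an enzyme that strips the lipid from Wnt proteins and is a known Wnt target, was a late gene. It stood at 0.443 and 0.213 CPM in MEF, 0.0269 and 0.0296 at day 3, 0.706 and 1.09 at day 6, 1.9 and 1.84 at day 9, and 17.4 and 16.7 in ESC. Day 3 held 2 reads; MEF stood 11.3-fold above it (95% exact interval 2.72 to 99.7) and day 6 stood 31.7-fold above it (8.41 to 268). ESC lay above every other library, by 3.19 ± 0.19 over day 9 on the log2 scale (edgeR adjusted p = 2.1e-09). Of the reads of Notum 59.3%, of Wnt11 64% and of Wls 47.8% were assigned to transcripts without a coding label, and an antisense gene (Notumos) overlaps its exons, so reads of both genes may be mixed in its level. The strand setting of the counting is not given in the sources used here, and the same overlap with a gene on the opposite strand holds for Axin2, Ctnnb1, Fzd5, Fzd6, Kremen2, Lef1, Rspo3, Sfrp2, Tcf7l1, Wnt11, Wnt5a and Wnt7b.

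Inside the cell, Axin1 and Axin2 build the destruction complex, and Nkd1 and Nkd2 bind Dishevelled. Axin2 (chr11:108920349-108950783) stood at 3.88 and 3.72 CPM in MEF, 0.969 and 0.414 at day 3, 0.265 and 0.272 at day 6, 0.45 and 0.429 at day 9, and 6.19 and 6.28 in ESC. ESC were highest, MEF next, and the induced stages all lay under 1 CPM. It fell at day 3 by 2.43 ± 0.29 on the log2 scale (edgeR adjusted p = 4e-06) and was higher in ESC than at day 9 by 3.82 ± 0.31 (edgeR adjusted p = 5.5e-08). ESC and MEF differed by 0.71 ± 0.24, under the fold minimum. The fall at day 6, -1.37 ± 0.40 (edgeR adjusted p = 0.01), was -0.63 with an adjusted p of 0.33 without day 3 replicate 1, the higher of the day 3 libraries.

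Axin1, which is not known as a Wnt target, passed both thresholds in no comparison, at 55.2 to 69.7 CPM. Nkd1, also a Wnt target in several tissues, stood at 25.3 and 24 CPM in MEF, 1.99 and 2.57 at day 3, 1.15 and 1.24 at day 6, 1.09 and 1.97 at day 9, and 2.33 and 2.86 in ESC. Nkd2 stood at 15.5 and 15.4 CPM in MEF, 5.71 and 4.94 at day 3, 1.59 and 1.45 at day 6, 1.8 and 2.58 at day 9, and 2.74 and 3.71 in ESC. Both were fibroblast-high with no overlap of MEF with any other group. Nkd1 fell at day 3 by 3.44 ± 0.18 (edgeR adjusted p = 5.9e-10), and Nkd2 by 1.54 ± 0.16 at day 3 (edgeR adjusted p = 9.8e-07) and 1.81 ± 0.20 at day 6 on the log2 scale (edgeR adjusted p = 2.4e-06).

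Ctnnb1 (chr9:120929216-120960507), which encodes β-catenin and is controlled in the pathway mainly as a protein, passed both thresholds in no comparison. It stood at 808 and 806 CPM in MEF, 961 and 988 at day 3, 996 and 977 at day 6, 872 and 880 at day 9, and 678 and 675 in ESC. Day 3 and day 6 overlapped at the top and ESC lay lowest. The differences were small beside those of most members, at 0.27 ± 0.03 in day 3 with MEF (edgeR adjusted p = 8.8e-07) and -0.37 ± 0.03 in ESC with day 9 on the log2 scale (edgeR adjusted p = 3e-08). Per length it was the most abundant member in every group, at 198 ± 8.95 TPM in ESC to 275 ± 10.6 at day 6. The transcript Ctnnb1-201 took 69.9% to 79.1% of its reads in the 10 libraries.

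Of the 4 TCF/LEF factors, Tcf7l1 and Tcf7l2 were lower and Tcf7 and Lef1 higher in ESC than at day 9. Tcf7l1 (chr6:72626378-72789254), the member that mainly represses its targets in stem cells, stood at 49.3 and 51.7 CPM in MEF, 113 and 108 at day 3, 127 and 128 at day 6, 130 and 138 at day 9, and 59.2 and 61 in ESC. The induced stages lay above MEF and ESC with no overlap. It rose at day 3 by 1.13 ± 0.04 on the log2 scale (edgeR adjusted p = 1.3e-11) and was lower in ESC than at day 9, at -1.16 ± 0.04 (edgeR adjusted p = 6.3e-12). Tcf7l2, which can activate or repress, stood at 18.9 and 18 CPM in MEF, 40.7 and 37.2 at day 3, 36.2 and 37.1 at day 6, 25 and 27 at day 9, and 8.28 and 6.7 in ESC. It too was highest in the induced stages, with a rise at day 3 of 1.08 ± 0.08 (edgeR adjusted p = 1.3e-08) and an ESC level below day 9, at -1.80 ± 0.09 on the log2 scale (edgeR adjusted p = 2.3e-10).

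Tcf7 (chr11:52252371-52283014), which mainly activates, stood at 1.81 and 1.49 CPM in MEF, 0.646 and 0.591 at day 3, 5.44 and 5.54 at day 6, 10.4 and 9.98 at day 9, and 39.2 and 39.7 in ESC. No 2 groups overlapped, and the order after day 3 followed time with ESC last. Tcf7 fell at day 3 by 1.40 ± 0.19 on the log2 scale (edgeR adjusted p = 1.6e-05), rose by 3.14 ± 0.15 at day 6 (edgeR adjusted p = 2.3e-10) and was higher in ESC than at day 9 by 1.96 ± 0.07 (edgeR adjusted p = 1.1e-11). Lef1 (chr3:131110471-131224356), also an activator, stood at 2.18 and 2.41 CPM in MEF, 3.74 and 3.52 at day 3, 1.53 and 1.63 at day 6, 1.41 and 1.87 at day 9, and 13.9 and 12.2 in ESC. It stayed low through day 9, where day 6 and day 9 overlapped, and ESC stood above day 9 by 2.97 ± 0.17 on the log2 scale (edgeR adjusted p = 1e-09).

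Per length, Tcf7l1 was the leading TCF/LEF factor in every group, at 34.1 ± 1.66 TPM at day 9 beside 2.15 ± 0.0802 for Tcf7, and at 16.9 ± 0.165 TPM in ESC beside 9.26 ± 0.162 for Tcf7. The transcript Tcf7-001 took 80.5% to 100% of the reads of Tcf7, and Tcf7l1-001 took 74.2% to 84.9% of those of Tcf7l1. Tcf7l2-006 took 50.9% to 64.6% of the reads of Tcf7l2, and Axin1-001 took 64.6% to 73.8% of those of Axin1. For Lef1 the split scattered between libraries of a stage, as with Lef1-006 at 66.1% and 5.48% in ESC, and for Axin2 likewise, with Axin2-001 at 72.1% and 0% at day 9. No stage difference in the transcripts of these 2 genes can be read at this depth.

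Of the 24 members higher in ESC than at day 9, some lay near the level that fibroblast markers had in ESC and others lay far above it. The fibroblast markers stood in ESC at 1.11% to 14% of their MEF level, with a median of 8.37%. Of the 24 members, 4 (Rspo2, Rspo3, Sfrp2 and Wnt2) stood at 5.51% to 10.1% of MEF, within that range. Another 11 stood above it and below MEF, from 14.3% (Wnt9a) and 17.3% (Wls) to 85.3% (Wnt2b). The other 9 (Axin2, Fzd10, Fzd9, Lef1, Notum, Rspo4, Sfrp5, Tcf7 and Wnt3a) stood above their MEF level, from 164% for Axin2 and 567% for Lef1, over 2388% for Tcf7 and 5192% for Notum, to 5410% for Fzd10 and 18885% for Sfrp5, with no percentage for Wnt3a because MEF had no read. The ESC were grown on irradiated feeder cells and were not sorted, whereas day 9 cells were; the part of the fibroblast RNA in these results was not tested, and for the last 9 the ESC mean was higher than the MEF mean. The difference of ESC from MEF passed both thresholds for 8 of these 9, the exception being Axin2. Among the 8, that of Rspo4 was lost by DESeq2 (adjusted p = 0.054).

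**Figure D5:**
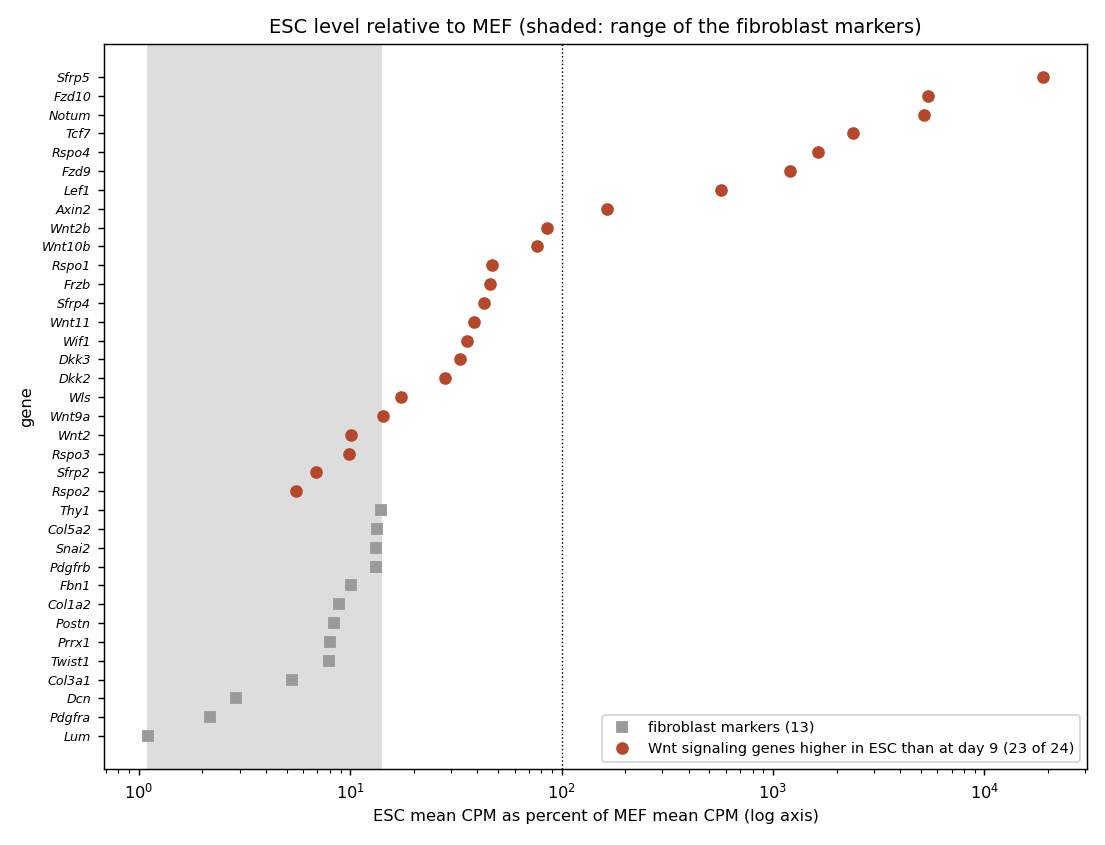
Mean ESC level as a percent of the mean MEF level (horizontal log axis) for 13 fibroblast markers (grey squares) and for 23 of the 24 Wnt signaling genes that were higher in ESC than at day 9 (red circles); Wnt3a is not drawn because it had no read in MEF. The shaded band is the range of the markers, 1.11% to 14%, and the dotted line is the MEF level: 4 genes lie in the band and 8 of the genes drawn lie right of the line.

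Genes of the pathway outside the set were followed in a fixed list of 50, of which 49 were tested. In day 3 with MEF 4 rose and 11 fell, in day 6 with day 3 4 rose and 12 fell, in day 9 with day 6 3 rose and 1 fell, in ESC with day 9 9 were higher and 7 lower, and in ESC with MEF 4 were higher and 17 lower. Counting both directions, this was 30.6%, 32.7%, 8.16%, 32.7% and 42.9% of the list in these 5 comparisons in order. Of all genes it was 29.1%, 19.5%, 7.87%, 32.9% and 46.1%, so the pooled shares lay near each other except in day 6 with day 3. The directions were less alike. Higher were 8.16%, 8.16%, 6.12%, 18.4% and 8.16% of the list, beside 14.6%, 9.26%, 5.18%, 18.6% and 25.5% of all genes. Lower were 22.4%, 24.5%, 2.04%, 14.3% and 34.7% of the list, beside 14.5%, 10.2%, 2.68%, 14.3% and 20.6% of all genes. The list's medians on the log2 scale were -0.08, -0.30, -0.11, -0.05 and -0.57 in the same order, beside 0.08, 0.03, 0.00, 0.00 and 0.10 over all genes. Sost, a secreted inhibitor that binds Lrp5 and Lrp6 and is best known from bone, went from 0.061 CPM in MEF to 33.2 at day 3. The fitted log2 fold change was 8.88 (edgeR adjusted p = 4e-12), of uncertain size because MEF stood at 0 and 0.122 CPM. Celsr2, an atypical cadherin of planar polarity, went from 2.75 to 28.6 CPM. Gpc3, a glypican, fell at day 3 from 98.9 to 18.1 CPM and Adgra2, an adhesion receptor for Wnt7 signaling, from 439 to 108 CPM.

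At day 6, Celsr1 rose from 2.87 to 30.1 CPM and Tle4, a Groucho co-repressor of TCF factors, from 21.6 to 64.6 CPM, while the Wnt5a receptor Ror1 fell from 12.2 to 0.328 CPM and Adgra2 from 108 to 9.5 CPM. Among genes that reached 10 CPM in either group, Adgra2 and Celsr3 were the largest differences upward in ESC with day 9, at 56 beside 3.56 CPM and 13.1 beside 1.17 CPM, and Prickle1 and Celsr2 downward, at 4.06 beside 27.2 CPM and 10.9 beside 59.9 CPM. In ESC with MEF, Celsr1 and Tle4 were higher, at 29.3 beside 1.57 and 114 beside 9.6 CPM, and Prickle1 and Tpbg lower, at 4.06 beside 62.5 and 8.56 beside 89.2 CPM. In day 9 with day 6 no gene past both thresholds reached 10 CPM; these were Celsr3, Gpc3 and Lypd6, which rose, and Adgra2, which fell, the 4 being named after their values were seen.

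Genes widely used as readouts of β-catenin and TCF, a list of 19 that leaves out Myc and the members, gave 17 tested. In day 3 with MEF 4 rose and 7 fell, in day 6 with day 3 1 rose and 5 fell, in day 9 with day 6 1 rose and 2 fell, in ESC with day 9 13 were higher and 3 lower, and in ESC with MEF 6 were higher and 4 lower. Of all genes, 14.6% rose and 14.5% fell in the first of these comparisons, 9.26% and 10.2% in the second, 5.18% and 2.68% in the third, 18.6% and 14.3% were higher and lower in ESC with day 9, and 25.5% and 20.6% in ESC with MEF. The fibroblast markers summed to 122 to 130 CPM at day 9 and 3102 to 3273 in ESC, and their part in the count of this list was not tested. Wisp1 (Ccn4) and Wisp2 (Ccn5), matricellular genes of mesenchymal cells, fell at day 3 from 661 to 39.6 CPM and from 139 to 3.3 CPM, and stood at 84 and 14.1 CPM in ESC. Ccnd1, the G1 cyclin, rose at day 3 from 201 to 442 CPM, and Id2, an inhibitor of bHLH factors, from 103 to 238 CPM. Sall4, a pluripotency factor, rose at day 6 from 0.151 to 22.5 CPM and at day 9 to 47.9 CPM, while Cd44 fell at day 6 from 219 to 58 CPM and at day 9 to 23.6 CPM.

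In ESC with day 9 the lower genes of this list at 10 CPM or more were Id2, at 16.6 beside 213 CPM, and Jag1, the Notch ligand, at 29.2 beside 70.6 CPM. Against MEF, Sall4 was the only gene of the list at 10 CPM or more that was higher in ESC, at 180 CPM beside 2 reads in MEF, and Wisp2 and Jag1 were lower, at 14.1 beside 139 and 29.2 beside 265 CPM. The genes of the list higher in ESC than at day 9 were of more than one kind, and those named here beyond Sall4, Wisp1 and Wisp2 were chosen after their values were seen. Wisp1 and Wisp2 were lower in ESC than in MEF, Cd44, Mitf, Bambi and T did not pass both thresholds against MEF, and Sp5, Sp8, Cdx1, Ascl2, Tnfrsf19 and Sall4 were higher than in MEF. Several of these were low: Sp5, Sp8, Cdx1, Ascl2 and Tnfrsf19 stood at 0.511, 1.58, 1.95, 3.44 and 4.17 CPM in ESC. MEF had no read of Sp5 or Sp8 and 2 reads of Cdx1. T had no read at day 9 and stood at 0.0884 and 0.294 CPM in ESC, so its call rests on few reads.

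The 28 members given library by library had 23 calls in day 3 with MEF. Of these calls, 4 were lost under at least 1 other setting: Fzd5 (0.89 under DESeq2), Tcf7l2 (0.95 under DESeq2), Tcf7 (-0.99 by limma on TPM) and Wnt16 (adjusted p = 0.48 by limma on TPM). In day 6 with day 3 it was 3 of 17 (Fzd3, Lef1 and Rspo2, each by limma on TPM), in day 9 with day 6 4 of 5 (Lgr5, Notum, Wls and Wnt16), in ESC with day 9 3 of 15 (Sfrp2, Wnt4 and Wnt9a) and in ESC with MEF 2 of 25 (Lgr6 and Tcf7l2). The count of 9 rises at day 9 was 4 without day 6 replicate 1 and 5 without day 9 replicate 2, and the count of 2 falls was 1 without either day 6 replicate and 0 without day 9 replicate 2. Calls on these members that ended with a library left out were the following, as log2 fold changes. Fzd5 at day 3 was 0.98 without day 3 replicate 2. At day 9, Notum was 0.77 without day 6 replicate 1, Wnt16 was 0.70 without day 6 replicate 1 and 0.99 without day 9 replicate 2, and Lgr5 was -0.93 without day 6 replicate 2 and -1.07 (edgeR adjusted p = 0.15) without day 9 replicate 2. The step of Wls to day 9 slipped just under the fold minimum without day 6 replicate 1 or day 9 replicate 2. Wnt9a in ESC with day 9 was 0.98 without ESC replicate 1, and Lgr6 in ESC with MEF was 0.96 without MEF replicate 2 and just under the fold minimum without ESC replicate 2.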

How the data were processed

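RNA was measured in 10 libraries, 2 for each of 5 groups taken from the sample titles. Libraries were made with a stranded poly(A) kit and read from one end, per the labels' protocols. The authors deposited 1 table per library with estimated counts and TPM values for 109617 transcripts, made with Salmon 0.8.2 and mm10, per the submitters' processing notes. The annotation, index and strand setting are not given in the sources used here. Effective lengths, which the deposited tables also hold, were the same in all 10, so other length units add nothing per library.

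The deposited estimated counts were summed per gene over all transcripts and rounded. Genes passed edgeR's filterByExpr (minimum count 10, minimum total 15), and libraries were scaled by TMM, also for CPM. One quasi-likelihood model with 5 group means (edgeR 4.0.16 in R 4.3.3) took in all 10 libraries, and p-values were adjusted over all 20165 genes tested. At this group size the smallest p of an exact permutation test, two-sided, is 0.333. Each SE is the size of the log2 fold change divided by the root of its F statistic. Such an SE can be too small for a large difference from a group with few reads. For Lgr5 in ESC, at 0.111 CPM, it was 0.12 against MEF and 0.53 against day 9. The deposited TPM values served for levels between genes, over transcripts of at least 400 bases, a length chosen after seeing the data because short transcripts inflated some values.

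The members, the 2 further lists and the markers were chosen with earlier results of these data known. Values in every library are given for members past both thresholds in a comparison and at 10 CPM or more in a group; those of Axin2, Ctnnb1 and Wnt3a were added after their values were seen. From the further lists, the 2 largest rises and falls per comparison at 10 CPM or more are named. The values of 1 gene of these lists are not reported here. Intervals for groups with 1 to 3 reads are exact, at 95%, and cover counting error only, as do the 3-read floors.

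Coordinates are from GENCODE M21 (GRCm38), in which 98.8% of the genes were found. Replicates were compared first: chi-square values over degrees of freedom were 2.91 to 5.42 within pairs, above sampling noise, so each library was counted on its own. The test was tested on simulated data. Alternatives were DESeq2 1.42.0, limma 3.58.1 on log2(TPM + 0.1), other scaling, no low-count filter, only the groups compared, coding transcripts only, a replicate block, each replicate left out, and, added after seeing the data, no ESC group.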

Additional observations from a re-analysis of the deposited data

How the results depend on the processing

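Of the 146 calls of members in the 5 comparisons, 42 were lost under at least 1 setting and 0 were reversed. Counts of members moved by more than 1.5 times only where named here. Rises in day 3 with MEF numbered 6, and 3 by DESeq2. Rises in day 6 with day 3 numbered 9, and 5 by limma on TPM. Rises in day 9 with day 6 numbered 9, 5 by DESeq2, 5 by limma on TPM and 4 to 9 with each replicate left out. Falls in day 9 with day 6 numbered 2, 1 by DESeq2, 1 with RLE scaling, 1 with library-size scaling, 1 on coding transcripts only, 1 by limma on TPM, 1 without the ESC group, 0 with only the groups compared and 0 to 2 with each replicate left out. Lower members in ESC with day 9 numbered 8, and 4 by limma on TPM. In day 9 with day 6, limma on TPM called 2 of the other pathway genes in place of 4 and 1 target gene in place of 3. The cause of these moves was not tested, other than that fewer libraries entered some fits.

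The replicate block left all counts within 1.5 times and lost 0 member calls, for example 31 falls and 6 rises in day 3 with MEF. Equal replicate numbers share no more than a number: the correlation of their deviations lay between -0.020 and 0.022 over 10 pairs of groups. Without TMM, the all-gene median on the log2 scale moved from 0.080 to 0.285 in day 3 with MEF and from 0.099 to 0.438 in ESC with MEF, so fold changes are relative to that shift. Members under 1 CPM rest on few reads, and a level of 0 means at most 3 reads over a group.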
